A study of Mus musculus with 38 samples.

Results

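Inhibition of the c-Jun N-terminal kinases (JNK) was followed through the first 3 days of the primed to naive transition (PNT) in 13 mouse RNA-seq libraries, out of 38 in the whole series. They were chosen by title alone, as all 7 libraries that received the inhibitor on day 1, 2 or 3 and all 6 libraries of the same days that did not. The starting cells were kEpiSC, epiblast stem cells in the primed state that carry an Oct4-GFP reporter and a Klf4 transgene driven by a CAG promoter, which was delivered by lentivirus and kept under G418 selection. They were moved into iCD1, a chemically defined medium in which they are reset towards naive induced pluripotent stem cells (kiPSC). The inhibitor was SP600125, an anthrapyrazolone that competes with ATP in the JNK active site (JNKi). The control groups held 2 libraries on each day, and the JNKi groups held 2 libraries on day 1, 3 on day 2 and 2 on day 3. Both transgenes and the iCD1 medium were therefore common to all 13 libraries. The methods list 3 concentrations of JNKi and the labels name none, so the dose behind a library is not known here. The study names DMSO as the comparison of its dosing experiment, and the labels do not say whether the control libraries received it. Whether kEpiSC were 1 clone is not stated in the sources used here. A second set of 8 libraries from other cells on day 3 (kiEpiSC, WT and JunKO, with and without JNKi) served for a comparison at the end.

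JNK are stress-activated kinases encoded by Mapk8, Mapk9 and, mainly in neurons, Mapk10. They phosphorylate the amino-terminal transactivation domain of c-Jun, the product of Jun, which pairs with FOS or ATF family proteins to form the transcription factor AP-1. AP-1 acts on immediate early genes, on genes of adhesion and migration, and on Jun itself. Primed pluripotent cells, which resemble the epiblast after implantation, have to silence part of their programme and switch on naive genes such as Esrrb, Tfcp2l1 and Klf2 when they are reset. The comparison asks which transcripts differ when JNK is inhibited during that reset.

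AP-1 binds the motif TGACTCA, and Jun carries a variant of it, TGACATCA, close to its own start site. A stretch before the start site of Jun is shown because Jun is the gene downstream of the inhibited kinase and a known target of its own product, and a stretch of Cldn4, a tight junction gene called in one of the fits below, because its promoter window held the canonical motif. Both were taken from RefSeq promoters (GRCm38.p6, 250 bases before to 50 after the start site), lie on the minus strand and are written 5′ to 3′, with the motif in capitals. The Jun stretch covers chr4:95052233-95052322 and the Cldn4 stretch chr5:134947075-134947184.
Jun: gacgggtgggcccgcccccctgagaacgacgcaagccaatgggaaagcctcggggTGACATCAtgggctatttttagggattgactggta
Cldn4: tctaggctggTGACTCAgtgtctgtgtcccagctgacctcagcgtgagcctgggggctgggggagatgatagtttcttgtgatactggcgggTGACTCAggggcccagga
The motif of Jun began 45 bases before the start site, and those of Cldn4 began 240 and 158 bases before it. On both strands, TGACTCA occurred in 5.2% and TGACATCA in 3.62% of 32851 promoter windows. Neither of them, nor the related TGACGTCA (1.79% of windows), was found in the windows of Junb, Jund, Fos, Fosb, Fosl2, Atf3, Esrrb, Nanog, Tfcp2l1, Klf2, Zfp42 or Pou5f1. A match describes the letters in that window and is not evidence of binding.

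The 13 libraries held 3.547 to 8.456 M expected counts and 16528 to 17617 detected genes, with control totals of 4.624 to 8.456 M and JNKi totals of 3.547 to 8.177 M. The first principal component of the 1000 most variable genes held 69.2% of the variance and followed the day, the second held 14.9% and the third 3.1%. On the first, JNKi libraries lay below both controls of their day, towards the side of day 1. Scores on day 1 were −57.32 and −54.67 with JNKi against −51.23 and −51.22 in controls. On day 2 they were 1.58, 11.63 and 7.36 against 13.87 and 15.30. On day 3 they were 40.23 and 36.85 against 42.56 and 45.06. What part this order has in the gene values below was not tested. Summed markers of 16 fibroblast and feeder genes, from cells that a stem cell culture can carry along, lay at 387 to 426 CPM (counts scaled to library size) in JNKi and at 426 to 441 in control libraries on day 3, at 366 to 377 and 389 to 409 on day 2, and at 291 to 307 and 308 to 317 on day 1. None of these genes was without a count in all 13 libraries. Summed trophoblast markers (13 genes, 2 without a count in any library) were lower with JNKi on day 1 (268 to 371 against 375 to 420 CPM) and higher on day 2 (178 to 289 against 146 to 176). On day 1, JNKi libraries also lay above controls for 16 neural ectoderm markers (423 to 465 against 409 to 412), and below them for 16 of presomitic mesoderm (1512 to 1608 against 1644 to 1743) and 15 of blood and endothelium (114 to 125 against 130 to 134). These 3 sets overlapped between the arms on days 2 and 3, and markers of neural crest, primitive endoderm and mesendoderm overlapped on each day. The pluripotency genes Pou5f1 and Sox2 were detected in every library. The part of such other cells in the results below was not tested. Levels per gene are CPM after TMM scaling, and the value after ± is the standard error on the log2 scale. The study calls its replicates biological without saying how cultures were kept apart, so the p-values here speak only of the spread from library to library.

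Averaged over the 3 days with day as a block, JNKi gave no called gene. Of 13838 genes tested, 0 (0%) had a Benjamini-Hochberg adjusted p under 0.05 in edgeR's quasi-likelihood test, and the smallest adjusted p was 0.449. At an unadjusted p under 0.05 there were 839 genes (6.06%), 558 higher (4.03% of genes tested) and 281 lower (2.03%) with JNKi. DESeq2 called 3 genes (Cd55, Igfbp3 and Cbx7, all higher with JNKi) and limma on log2(TPM + 1) called 0. For scale, the same fit called 6865 genes (49.6%) between day 3 and day 1. The precision of the averaged effect can be given per gene: the median standard error was 0.11 on the log2 scale, and for 12510 genes (90.4%) the 95% interval lay within a 2-fold change either way. For 10185 genes (73.6%) it lay within 1.5-fold. Across genes, the median log2 fold change was 0.00.

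**Figure D1:**
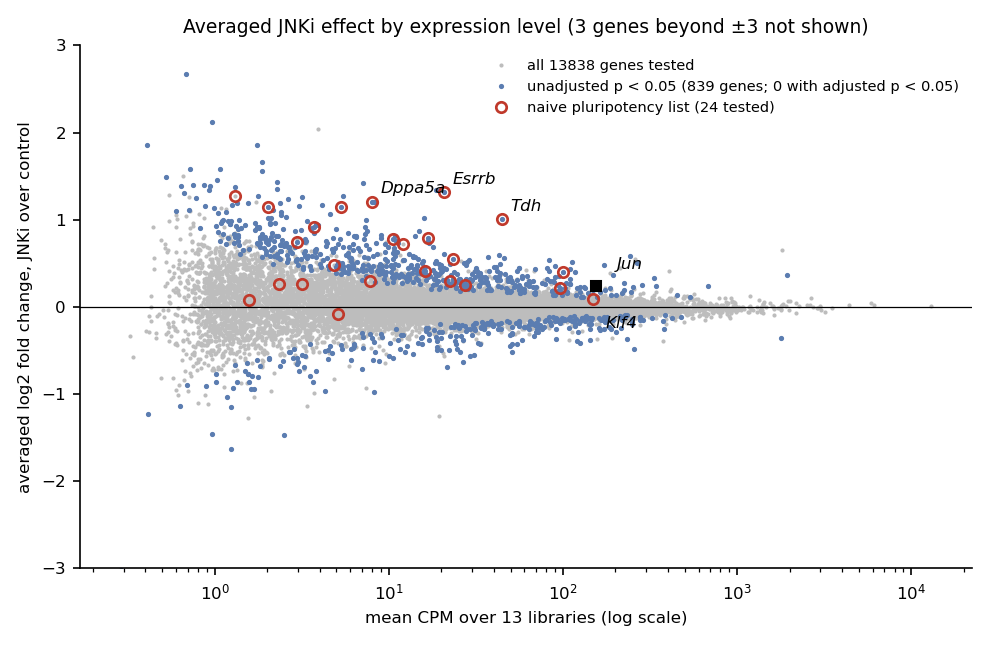
The averaged log2 fold change of JNKi over control (vertical) is plotted against the mean CPM over 13 libraries (horizontal, log scale) for every gene tested, with 3 genes beyond the axis left out. The 839 genes with an unadjusted p under 0.05 are blue, the 24 naive genes are circled in red, and 23 of these circles lie above 0.

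The transcripts of the kinase genes themselves lay close together in both arms. Mapk8, which encodes JNK1, had 72.6 to 103 CPM in controls and 69.8 to 102 with JNKi, and its averaged log2 fold change was −0.09 ± 0.07 with a 95% interval of −0.23 to 0.06. Mapk9, which encodes JNK2, had an averaged log2 fold change of −0.04 ± 0.06. Per length, on the TPM scale, group means were 55.6 to 84.4 for Mapk8 and 20.9 to 31.9 for Mapk9, and Mapk10 had at most 5 counts in any library and was not tested. Among 23 tested genes of the JNK cascade (kinases, scaffolds and phosphatases), 0 were called and the median log2 fold change was −0.01. The member furthest from 0 was Dusp10, a phosphatase that acts on JNK, at 0.63 ± 0.29 (adjusted p = 0.799, edgeR).

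Jun was higher in every library of day 3 than in any of day 1, and the arms overlapped on each day. Controls had 38.5 and 52.9 CPM on day 1, 65.7 and 120 on day 2, and 268 and 373 on day 3. JNKi libraries had 103 and 47.6 on day 1, 63.9, 119 and 108 on day 2, and 455 and 197 on day 3. The averaged log2 fold change of Jun was 0.24 ± 0.23 (95% interval −0.25 to 0.73, adjusted p = 0.975 in edgeR). JNKi replicate 1 of day 1 and replicate 2 of day 3 lay above both of their controls, and replicate 1 of day 2 and replicate 3 of day 3 below both.

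The AP-1 subunits had small averaged values. Of 18 tested genes, Jun included, 0 were called. At an unadjusted p under 0.05, 0 were higher and 1 (Bach2, −0.36 ± 0.17) lower, beside 4.03% and 2.03% of all genes. A positive averaged value was seen in 15, and the median was 0.05, beside 0.00 over all genes. That median was 0.26 on day 1, 0.03 on day 2 and −0.08 on day 3. It was 0.15 with the replicate block, where 4 of the 18 were higher at an unadjusted p under 0.05 (6.01% of all genes in that fit). With single libraries left out the median was 0.03 to 0.14, highest without control replicate 2 of day 2. Fos, the main partner of c-Jun, had 205 to 606 CPM in controls and 240 to 663 with JNKi, and an averaged log2 fold change of 0.41 ± 0.23. Fosb stood at 0.44 ± 0.31, Junb at 0.05 ± 0.16, Jund at 0.14 ± 0.16 and Fosl2 at −0.15 ± 0.15. Atf2 and Atf7, both substrates of stress kinases, stood at −0.03 ± 0.05 and 0.05 ± 0.10. Atf3, a stress-induced partner, had the largest positive value of the family at 0.52 ± 0.25 (adjusted p = 0.838).

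**Figure D2:**
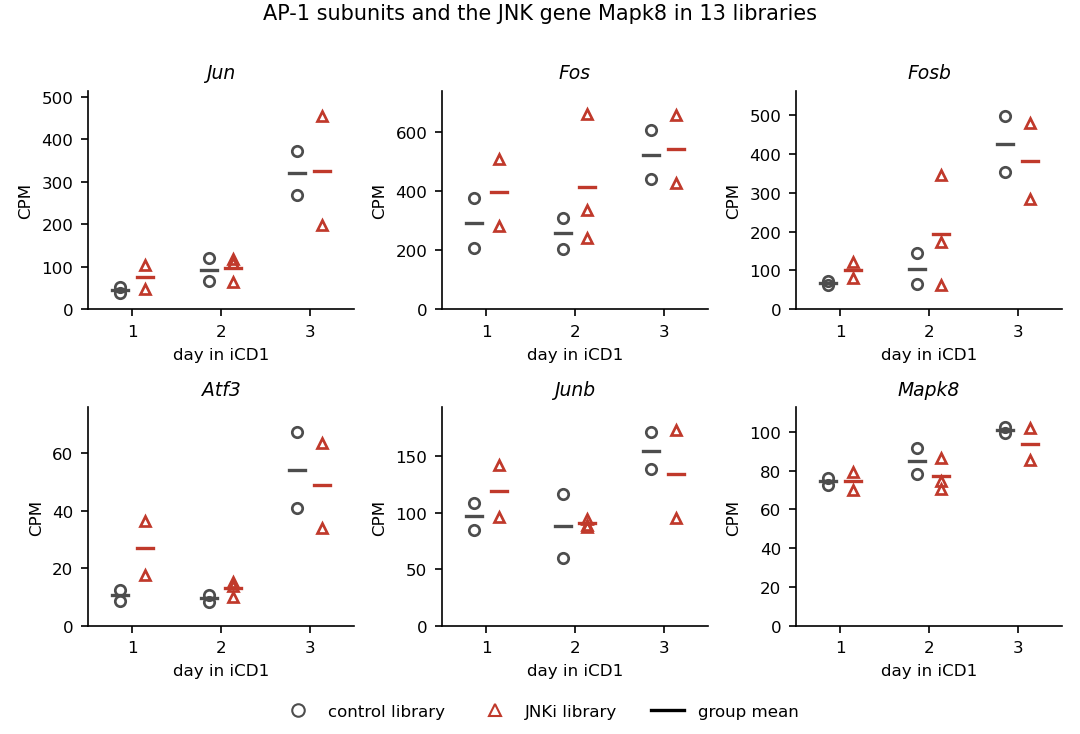
CPM (vertical, from 0) of 5 AP-1 subunit genes and of Mapk8 is plotted by day in iCD1 (horizontal) for each of 13 libraries, with circles for controls, triangles for JNKi and bars for group means. Jun, Fosb, Atf3 and Fos are highest on day 3 in the controls, and on that day the JNKi libraries lie on both sides of them for Jun.

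Genes known to be driven by AP-1 leaned to positive values, with a median of 0.17. Of 25 tested genes on that list, 0 were called, 18 had a positive value, and 2 were higher and 2 lower at an unadjusted p under 0.05 (4.03% and 2.03% of all genes). With the replicate block 1 was called (Krt8), 9 were higher and 2 lower at that level, beside 6.01% and 3.22% of all genes in that fit. The number higher was 6 without JNKi replicate 2 of day 1 and 5 without JNKi replicate 3 of day 3, and the median was 0.09 without JNKi replicate 1 of day 1 and 0.11 without control replicate 2 of day 1. Cd44, a hyaluronan receptor, had 21.5 and 26 CPM in controls and 20.9 and 19.7 with JNKi on day 1, 37.1 and 38.6 against 27.2, 35.8 and 32.4 on day 2, and 28.6 and 30.1 against 27 and 20.5 on day 3. It was thus below the controls of the same day in all 7 JNKi libraries, a pattern seen in 0.21% of all genes, at −0.25 ± 0.09 (adjusted p = 0.678). Krt8, a keratin of simple epithelia, stood on the other side at 0.36 ± 0.14. Over the 457 tested genes with TGACTCA in a promoter window the median log2 fold change was 0.02, beside 0.00 over the 10437 genes with any window. Of the 457, 0 were called, and 34 were higher and 11 lower at an unadjusted p under 0.05 (4.03% and 2.03% of all genes). SP600125 is also known to act on the aryl hydrocarbon receptor, and of 6 tested genes of that pathway 0 were called and 0 had an unadjusted p under 0.05: Cyp1a1 stood at 0.13 ± 0.41, Cyp1b1 at −0.02 ± 0.24 and Tiparp at −0.07 ± 0.10. Cyp1a1 rested on few counts (7 to 96.99 a library), and its 95% interval reached from −0.74 to 1.01.

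Genes of the naive state were the list that stood furthest from 0. Of 24 tested naive genes, 0 were called, but 23 had a positive averaged value and 13 were higher at an unadjusted p under 0.05 (4.03% of all genes). The list's median was 0.51, beside 0.00 over all genes. Esrrb, a nuclear receptor of the naive network (GRCm38, chromosome 12, 86361117 to 86521628, plus strand), had 12.0 and 11.4 CPM in the day 1 controls against 33.4 and 23.6 with JNKi. It had 16.6 and 13.1 against 56.3, 19.3 and 22.0 on day 2, and 9.11 and 5.44 against 13.7 and 35.0 on day 3. Every JNKi library was thus above both controls of its day, which held for 0.636% of all genes (88 of 13838). The averaged log2 fold change of Esrrb was 1.31 ± 0.27 (95% interval 0.75 to 1.88), and its adjusted p was 0.449 in edgeR, so it missed the threshold. With the replicate number as a block it was 1.26 ± 0.14 with an adjusted p of 0.0061. That fit draws the effect from 5 same-numbered pairs within a day, and the 3 libraries without a partner (control replicate 1 and JNKi replicate 3 of day 3, and JNKi replicate 3 of day 2) add nothing to it.

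A further 6 naive genes lay well above 0 but missed the threshold (adjusted p = 0.590 for each). Dppa5a, a marker of the naive state, stood at 1.21 ± 0.29, and its values on day 3 were 10.8 and 7.53 CPM in controls and 17.1 and 42.4 with JNKi. Tdh, which encodes the threonine dehydrogenase of mouse embryonic stem cells, stood at 1.01 ± 0.28, with 11.7 and 7.95 against 25 and 48.9 CPM on day 3. Zfp42 (Rex1) stood at 1.15 ± 0.33 and Tfcp2l1, a factor downstream of LIF and WNT signals, at 0.79 ± 0.23. Dppa4 (0.92 ± 0.25) and Dppa3 (0.78 ± 0.20) were, with Esrrb and Tdh, the 4 naive genes for which the JNKi libraries lay above the controls on all 3 days. Klf2 followed at 0.55 ± 0.18 (adjusted p = 0.634) and Nanog at 0.72 ± 0.35 (adjusted p = 0.849). Nanog had 9.25 and 14.0 CPM in controls and 13.4 and 11.3 with JNKi on day 1, so its groups overlapped there. Klf4, whose counts include the transgene, had 131 to 150 CPM in controls and 127 to 187 with JNKi, at 0.09 ± 0.07 (95% interval −0.06 to 0.24). The lowest value of the list was that of Fgf4, at −0.09 ± 0.39.

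**Figure D3:**
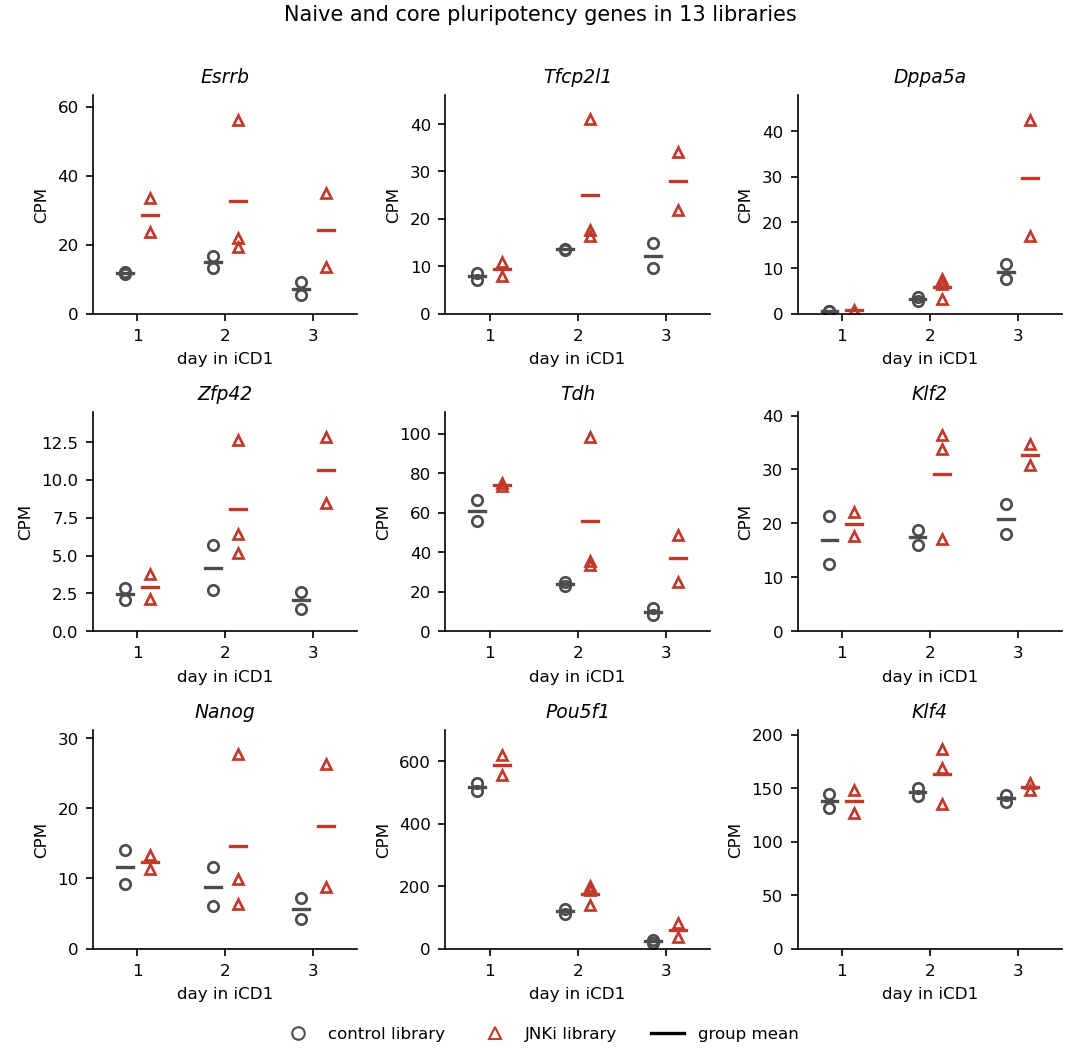
CPM (vertical, from 0) of 9 naive and core pluripotency genes is plotted by day in iCD1 (horizontal) for each of 13 libraries, with circles for controls, triangles for JNKi and bars for group means. For Esrrb, Tdh and Pou5f1 the triangles of each day lie above the circles, Klf4 is level, and JNKi replicate 1 of day 2 and replicate 3 of day 3 give the highest triangles of Esrrb, Tfcp2l1 and Nanog on their days.

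The naive genes were not equally high in all JNKi libraries. On day 3, replicate 3 was above both controls for 24 of 24 naive genes and replicate 2 for 18, while 35.9% and 31.8% of all genes were above both controls in these libraries. On day 2, replicate 1 was above both controls for 22 of 24 genes, and replicates 2 and 3 for 14 and 16. The shares of all genes were 32.3%, 30.5% and 34.4% in these 3 libraries, and 0, 5 and 3 naive genes lay below both controls. On day 1 the counts above were 12 and 7, beside 35.5% and 32% of all genes, and 8 and 7 naive genes lay below both controls. The median of the list was 0.11 on day 1, 0.73 on day 2 and 1.15 on day 3. Without replicate 1 of day 2 and replicate 3 of day 3 of JNKi, an alternative added after the data were seen, the median was 0.31, with 10 naive genes higher (5.36% of all genes there) and 1 lower at an unadjusted p under 0.05. Leaving out single libraries gave medians of 0.43 to 0.83, and the highest of these came without control replicate 2 of day 1. Over days 2 and 3 alone it was 0.85. Esrrb had 0.83% to 2.54% of the kiPSC mean in controls and 2.06% to 8.58% with JNKi. The median of the list without Klf4 was 0.83% to 2.54% in controls and 2.16% to 4.81% with JNKi. Single members were far above that median, such as Tfap2c, a factor shared with trophoblast, at 25.8% to 89.4% over the 13 libraries and Klf5 at 5.96% to 61.8%. In bulk libraries a higher share of cells expressing a gene and more RNA per cell cannot be told apart.

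Core pluripotency genes were divided. Of 11 tested, 0 were called and the median was 0.02, but 4 were higher at an unadjusted p under 0.05 (4.03% of all genes). Pou5f1 (Oct4) had 528 and 504 CPM in controls and 619 and 555 with JNKi on day 1, and 112 and 126 against 201, 138 and 188 on day 2. By day 3 it was down to 27.9 and 18.0 in controls and to 37.8 and 80.4 with JNKi. Its JNKi libraries lay above the controls on all 3 days, at an averaged log2 fold change of 0.59 ± 0.17 (adjusted p = 0.590). Utf1 showed the same order at 1.20 ± 0.37, and Sox2, which is also on the naive list, stood at 0.40 ± 0.16 and overlapped between the arms on day 1. Lin28a, Trim28 and Sall4 lay between −0.15 and −0.04.

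Primed genes lay on both sides of 0. Of 25 tested primed genes, 0 were called, 8 were higher and 2 lower at an unadjusted p under 0.05 (4.03% and 2.03% of all genes), and the median was 0.10. Only 3 were higher without control replicate 1 of day 1, and 4 without control replicate 1 of day 2 or JNKi replicate 1 of day 1. The median was 0.18 without control replicate 2 or JNKi replicate 3 of day 2. Otx2, a homeobox factor of the primed epiblast, stood at 1.67 ± 0.49 (adjusted p = 0.590). It rested on 8.13 and 3.01 CPM with JNKi against 1.27 and 1.19 in controls on day 1, and its arms overlapped on day 2. Eomes stood at 0.98 ± 0.40, Nodal at 0.81 ± 0.37 and T (Brachyury) at 0.24 ± 0.08. Fgf5, a primed marker, had 8 and 9 counts in the day 1 controls, 43 and 7 with JNKi, and at most 1 count in any later library, so it was not tested.

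Epithelial genes were the second list from the top. Of 18 tested, 0 were called, 17 had a positive value, 6 were higher at an unadjusted p under 0.05 (4.03% of all genes), and the median was 0.34. The number higher was 12 with the replicate block and 4 to 10 with single libraries left out, highest without JNKi replicate 3 of day 3. Cdh1 (E-cadherin), the adhesion molecule of epithelial cells, had 591 and 646 CPM in controls and 720 and 711 with JNKi on day 1. It had 176 and 185 against 244, 207 and 330 on day 2, and 142 and 109 against 166 and 126 on day 3, where the arms overlapped. Its averaged log2 fold change was 0.33 ± 0.10 (adjusted p = 0.625). Epcam stood at 0.40 ± 0.13 and Crb3, a polarity protein, at 0.71 ± 0.20, with JNKi above control on all 3 days. Without the 2 JNKi libraries named above, the epithelial median was 0.39. In the fit with the replicate block, Cldn4 (0.54 ± 0.08, adjusted p = 0.0257) and Krt8 (0.42 ± 0.07, adjusted p = 0.0472) rose. Of 15 mesenchymal genes, 0 were called and the median was −0.07.

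Hox genes lay on the opposite side. All 24 of the list were tested, 0 were called, 23 had a negative averaged value, 6 were lower at an unadjusted p under 0.05 (2.03% of all genes), and the median was −0.29. Hoxc6 was furthest from 0 at −0.69 ± 0.16 (adjusted p = 0.590), with 34.3 and 25 CPM in controls and 17.2, 18.1 and 16.3 with JNKi on day 2. Hoxb9 stood at −0.35 ± 0.19, and Hoxb1 at 0.00 ± 0.09. The median of the list was −0.68 on day 1 and −0.18 on days 2 and 3, and JNKi replicate 1 of day 1 had 19.9 CPM of Hoxb9 against 67.8 and 70.2 in controls. Without that library the median was −0.16 and 3 members were lower at an unadjusted p under 0.05. That number was 2 without control replicate 1 of day 3, 3 without control replicate 1 of day 1 or JNKi replicate 3 of day 3, and 10 without JNKi replicate 2 of day 3. Neighbouring Hox genes share a cluster and are not independent.

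The remaining lists with at least 5 tested genes had medians between −0.20 (neural crest) and 0.22 (trophoblast), and 0 called genes in each. Among 15 interferon response genes the median was 0.15, and Mx1, an antiviral GTPase, stood at 0.69 ± 0.32. Among 19 targets of ATF4, which answers amino acid stress, it was 0.13. Of these, Pck2 (0.32 ± 0.08) and Nupr1 (0.81 ± 0.24) were above control on all 3 days. Genes of G2/M (24 tested, median 0.03), DNA replication (22, −0.01), oxidative phosphorylation (20, 0.03) and cholesterol synthesis (22, 0.00) had intervals within a 2-fold change for each tested gene. The same held for all 16 tested ERK feedback genes and all 14 heat shock genes. Glycolysis and hypoxia genes lay on 1 side in the averaged fit: all 21 tested were positive, with a median of 0.10 and Ndrg1 at 0.34 ± 0.10. Their median was −0.02 on day 1, 0.03 on day 2 and 0.35 on day 3. On day 3, 6 of them were higher at an unadjusted p under 0.05, beside 325 of all 13838 genes. For cholesterol synthesis the medians of days 1, 2 and 3 were 0.05, −0.22 and 0.23. For the 12 tested fibroblast and feeder genes the median was −0.07, with Col3a1 at −0.55 ± 0.18 and Dcn at 1.11 ± 0.41.

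A few members stood apart from lists that lay near 0. Dnmt3l, the partner of the de novo DNA methyltransferases, stood at 1.85 ± 0.56 while the median of its list was −0.02. It had 1.01 and 0.71 CPM in controls and 3.31 and 1.63 with JNKi on day 1, but on day 2 its values were 0.60 and 0.81 against 5.35, 0.88 and 0.25, so the arms overlapped. On day 3 it had 0.72 and 0.21 against 2.52 and 4.65. Tet1 stood at −0.20 ± 0.08 and Tet2 at 0.42 ± 0.16.

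Of 23 immediate early genes, with a list median of 0.06, 2 were higher at an unadjusted p under 0.05 (4.03% of all genes). These were Ccn2, a matricellular protein gene (0.80 ± 0.24), and Sgk1, a kinase gene (0.37 ± 0.13). Egr1, the zinc finger factor induced by ERK signalling, stood at 0.12 ± 0.10. Of 18 NRF2 targets, 9 had a positive and 9 a negative averaged value. At an unadjusted p under 0.05, 3 were higher (4.03% of all genes): the metallothionein genes Mt1 (0.60 ± 0.22) and Mt2 (0.75 ± 0.30), and Gstm1 (0.30 ± 0.08). Gstm1, a glutathione transferase gene, was above control on all 3 days, with 75.4 and 80.8 CPM against 88.1 and 86.2 on day 1. Tdgf1 (Cripto), a Nodal co-receptor, stood at 1.28 ± 0.47 and was highest in JNKi replicate 1 of day 1, with 27.3 CPM against 7.54 in replicate 2 and 5.32 and 7.96 in controls.

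**Figure D4:**
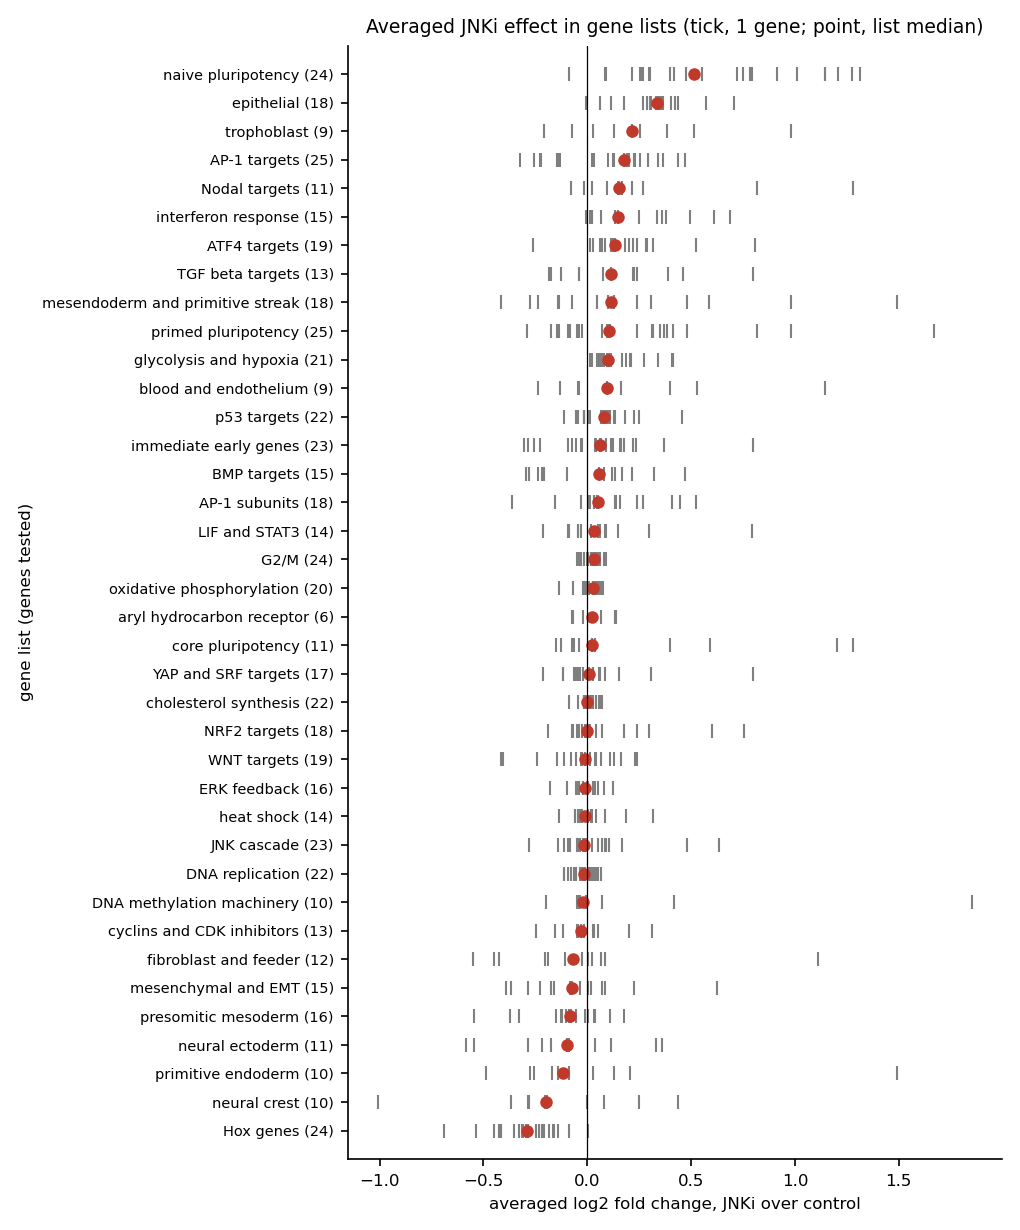
Averaged log2 fold changes (horizontal) are shown for each tested gene (tick) of 38 gene lists (vertical, with the number tested), and the point marks the median of a list. The naive list (median 0.51) and the epithelial list (0.34) lie at the top, Hox genes (−0.29) at the bottom, and the ticks of most lists straddle 0.

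The calls that depended on the fit concerned few genes. With the replicate block 7 genes were called (0.0506% of genes tested), 6 higher and 1 lower. Besides Esrrb, Cldn4 and Krt8 they were, named after their values were seen, Apoe, Cd55, Zfp980 and Duxbl1. Cd55, which encodes a complement decay-accelerating factor on the cell surface (chromosome 1), had 70.6 and 87.2 CPM in controls and 145 and 121 with JNKi on day 1. On day 2 it had 13.3 and 13.3 against 21.5, 19.5 and 22.5, and on day 3 the arms overlapped with 9.55 and 11.7 against 13.5 and 9.30. Its averaged value was 0.60 ± 0.11 (adjusted p = 0.449 in edgeR, 0.0160 in DESeq2, and 0.0257 with the replicate block in edgeR).

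Apoe, an apolipoprotein, stood at 0.44 ± 0.13 and, with the block, at 0.49 ± 0.07 (adjusted p = 0.0257). Zfp980, a zinc finger gene in a region of near-identical copies on chromosome 4, stood at 1.20 ± 0.27, and its relatives Zfp978 (1.56 ± 0.35) and Zfp982 (1.26 ± 0.30) were also above control on all 3 days. Because RSEM shares reads among copies, their values are uncertain one by one. Duxbl1, another gene with near-identical copies, had 0 counts in all 7 JNKi libraries. In controls it had 42.61 counts in replicate 1 of day 2, 27.32 in replicate 2 of day 3 and at most 2.38 in the others, so no fold change is given. Its relative Duxbl2 lay the other way, higher with JNKi, in the averaged fit without control replicate 2 of day 2. How reads were shared between these copies was not tested, so the 0 counts are uncertain as well.

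Igfbp3 and Cbx7 were called by DESeq2 and not with the replicate block. Igfbp3, which encodes a protein that binds insulin-like growth factors, was above control on each day, with 615 and 608 CPM against 917 and 730 on day 1, and 19.4 and 13.4 against 21.6 and 29.0 on day 3. Its averaged value was 0.50 ± 0.10 (adjusted p = 0.449 in edgeR, 0.0160 in DESeq2). Cbx7, a Polycomb subunit, had 18.8 and 21 CPM in controls and 31.8 and 27.4 with JNKi on day 1, and stood at 0.73 ± 0.15. Both genes were above control in all 7 JNKi libraries.

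Day by day, with 1 estimate of the spread over the 13 libraries, edgeR called 0 genes on day 1, 1 on day 2 and 0 on day 3. Unadjusted p-values under 0.05 numbered 292 (2.11%), 505 (3.65%) and 564 (4.08%). DESeq2 called 0, 1 and 3 genes, and limma 6, 1 and 1. Without JNKi replicate 2, day 3 gave 5 calls, among them Pou5f1. The gene called on day 2, named after its value was seen, was Gm6741 (0.00723% of genes tested), at 2.82 ± 0.32 (adjusted p = 0.0063). It had 2.10 and 1.62 CPM in the day 2 controls and 12.1 to 13.9 in the 3 JNKi libraries, but 4.67 to 14.4 in all libraries of days 1 and 3, so the low values were those of 2 control libraries. It was not called without either of these controls.

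With the replicate block, 10 genes were called on day 1, 7 on day 2 and 1 on day 3. On day 1 they included Atf3, which rose (1.32 ± 0.16, adjusted p = 0.0302) from 12.4 and 8.67 CPM in controls to 36.4 and 17.7 with JNKi. Fos also passed on that day (0.44 ± 0.07, adjusted p = 0.0443), from 377 and 208 to 510 and 283 CPM, and the 2 arms overlap unless same-numbered libraries are paired. Slc2a3, the glucose transporter GLUT3, fell on day 1 (−0.47 ± 0.07, adjusted p = 0.0443) and rose on day 3 (0.97 ± 0.11, adjusted p = 0.0125) in that fit. On day 3 this rests on the pair of replicates 2, with 258 CPM in the control and 506 with JNKi. The blocked fit by day gives each replicate number of a day its own level and each day its own effect. It therefore leaves fewer residual degrees of freedom than the main fit, and the single pair of day 3 adds none. The small standard errors of these calls lean on the spread that edgeR shares across genes.

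The test of whether the JNKi effect differed between days called 0 of 13838 genes in edgeR, with 234 at an unadjusted p under 0.05 (1.69%), 3 calls in DESeq2 and 1 in limma. With the replicate block there were 2 calls, Slc2a3 and Gm6741. The 8 genes with the smallest adjusted p and at least 10 CPM in a group were Gm6741 (0.130), Sprr2a1 (0.903) and Slc2a3, Ifitm1, Plod1, Ak4, AW551984 and ENSMUSG00000104300 (adjusted p of 1 for each, after rounding). Slc2a3 had log2 fold changes of −0.45, 0.42 and 0.63 on days 1, 2 and 3, and Plod1, a lysyl hydroxylase of collagen, 0.15, 0.27 and −0.81. For Jun the values were 0.71 ± 0.43, 0.07 ± 0.38 and 0.04 ± 0.40. For Esrrb they were 1.28 ± 0.48, 1.12 ± 0.45 and 1.67 ± 0.54.

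The same inhibitor was used for 3 days on kiEpiSC, EpiSC-like cells that also carry Klf4, of wild type (WT, 2 libraries with JNKi and 2 without) and in their c-Jun knockout made by CRISPR/Cas9 (JunKO, 2 and 2). None of these libraries is among the 13. In WT kiEpiSC, JNKi changed 272 of 14041 genes (1.94%), 153 higher (1.09%) and 119 lower (0.848%). That fit shares its spread with the JunKO libraries and with all 13 libraries of kEpiSC in iCD1. Of 26 tested naive genes 15 rose and 0 fell, with a median log2 fold change of 2.30 beside 0.02 over all genes. Esrrb had 4.23 and 18.3 CPM in controls and 57.4 and 91.7 with JNKi (2.72 ± 0.62, adjusted p = 0.0351), and Zfp42 2.11 and 6.33 against 31.7 and 40.0 (3.07 ± 0.55). Jun had 251 and 115 CPM in controls and 73.5 and 68.0 with JNKi (−1.37 ± 0.45, adjusted p = 0.127), which missed the threshold.

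This count rested on single libraries: it was 3 without control replicate 1, 10 without JNKi replicate 2 and 75 without JNKi replicate 1. It was 521 with the replicate block. In JunKO kiEpiSC, 130 genes changed (0.926%). Of the 26 naive genes 0 were called and 8 were higher at an unadjusted p under 0.05 (8.92% of all genes), with a median of 0.73. There the count of all genes was 13 without JNKi replicate 2 and 677 without JNKi replicate 1. It was 32 to 79 without any 1 of the JunKO controls, the WT libraries or the kEpiSC day 3 controls, 340 with the replicate block and 0 when the 4 libraries were fitted alone. WT and JunKO shared 30 called genes, 11% of the WT and 23.1% of the JunKO calls. Jun, the deleted gene, had 8.59 to 13.8 CPM in the JunKO libraries.

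The genes that JNKi had changed in WT kiEpiSC were then read in the 13 kEpiSC libraries. Of 153 genes higher in WT kiEpiSC, 148 were tested there, 130 had a positive averaged value and 69 were higher at an unadjusted p under 0.05 (4.03% of all genes). Their median was 0.32 in kEpiSC, beside 2.00 in WT kiEpiSC, and 0 of them were called in kEpiSC. Because the genes were selected by their change in those same WT libraries, the value of 2.00 is raised by the selection. The 2 medians therefore do not compare the strength of the response. On day 3 alone, the day of the kiEpiSC libraries, 124 were positive and the median was 0.46. Of the 119 that fell, 93 had a negative averaged value and 18 were lower at an unadjusted p under 0.05 (2.03% of all genes), and the median was −0.05. Over all 13838 genes, 7007 had a positive and 6831 a negative averaged value. On day 3 alone 61 of the 119 genes that fell in WT kiEpiSC were negative, with a median of −0.01. For the 82 genes higher in JunKO kiEpiSC, 80 were tested, 69 had a positive value and 28 were higher at an unadjusted p under 0.05 (4.03% of all genes). Their median was 0.18 (51 positive and 0.11 on day 3 alone). Of the 48 genes lower in JunKO kiEpiSC, 44 had a negative averaged value and 16 were lower at that level (2.03% of all genes). Their median was −0.16 (37 negative and −0.10 on day 3 alone).

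The difference between the day 3 effects in kEpiSC and in WT kiEpiSC was tested directly and passed for 2 of 14041 genes (0.0142%). Scarb1, the high-density lipoprotein receptor, had 93.7 and 92.3 CPM in controls and 113 and 113 with JNKi on day 3 in kEpiSC, but fell in WT kiEpiSC from 169 and 137 to 67.1 and 64.8. The difference was 1.49 ± 0.21 (adjusted p = 0.0135). Ptprt, a receptor tyrosine phosphatase, had 2.17 and 5.44 against 0.90 and 1.09 CPM in kEpiSC and rose in WT kiEpiSC from 2.11 and 2.00 to 10.3 and 17.9 (difference −4.66 ± 0.67, adjusted p = 0.0135). DESeq2 called 42 genes, and with the replicate block 0 were called. After these came Tmod2, Mkrn1, Nkx1-2 and Nr3c1 with lower and Gramd4, Dnpep, Srebf2 and Lipg with higher effects in kEpiSC, none below an adjusted p of 0.0863. For the naive genes the difference did not pass: that of Esrrb was −1.06 ± 0.89, of Zfp42 −0.77 ± 0.86 and of Klf2 −1.05 ± 0.48. A difference that misses the threshold at these errors does not show that both populations respond alike.

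**Figure D5:**
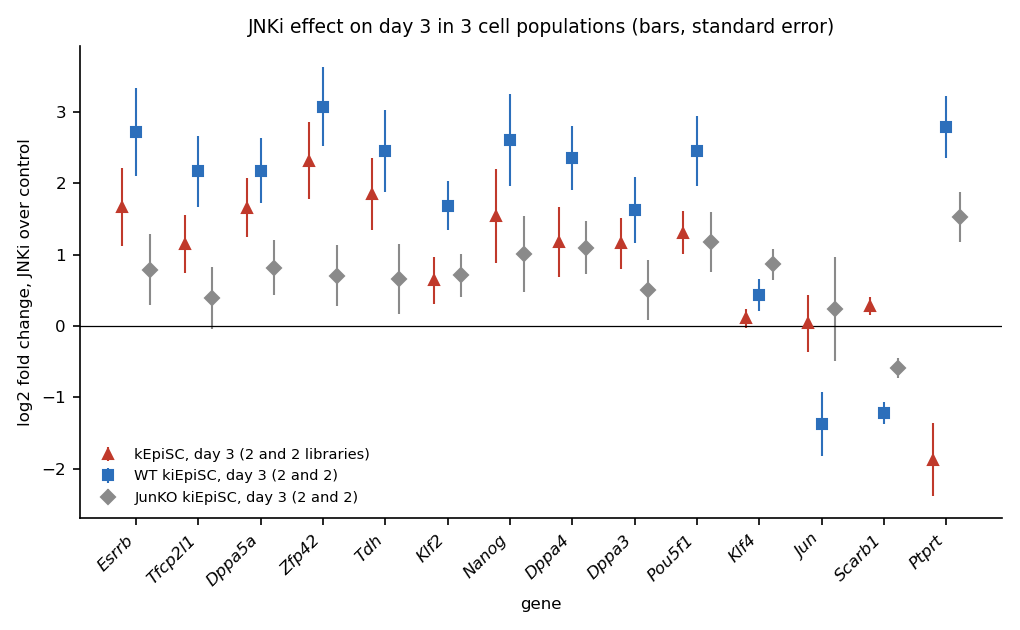
Log2 fold changes of JNKi over control on day 3 (vertical, bars are standard errors) are plotted for 14 genes in kEpiSC, WT kiEpiSC and JunKO kiEpiSC, with 2 libraries per arm in each. The naive genes have positive values in all 3 populations, Scarb1 and Ptprt point in opposite directions in kEpiSC and WT kiEpiSC, and Jun is at 0.04 in kEpiSC and at −1.37 in WT kiEpiSC.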

How the data were processed

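RNA from the 13 libraries was analysed, with 8 kiEpiSC libraries for 1 comparison and 2 kEpiSC and 2 kiPSC libraries as reference levels. Sequencing was on a NextSeq 500, and the labels and the methods of the study name different library kits. Per the labels, the authors demultiplexed with bcl2fastq, and Bowtie2 and RSEM produced the gene tables on mm10 (versions not given in the sources used here). The deposited expected count of a gene is what RSEM estimates before any normalization. The deposited TPM is length-adjusted by the authors' RSEM run and sums to the same total in each library. A table held 29267 genes, 28756 of them with a symbol in GENCODE M21, and no mitochondrial gene.

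The main test was edgeR 4.0.16 under R 4.3.3, on rounded expected counts scaled by TMM, with genes kept by filterByExpr (minimum count 10). It compared groups by quasi-likelihood F tests. For the averaged effect, day was a block (13838 genes, residual df 9, a biological CV of 0.119). Days and their interaction came from 6 group means, and the kiEpiSC comparisons from all day 3 groups among 21 libraries (14041 genes). Benjamini-Hochberg adjustment ran over every gene tested, with a threshold of 0.05. Dividing the size of a log2 fold change by the root of its F statistic gave its standard error. DESeq2 1.42.0 and limma 3.58.1, the latter on log2(TPM + 1), were among the alternatives in the closing section. Within each group of the 13 libraries, no library was a copy of another, and pairs across groups were not checked. The fits were also tested on simulated data with known fold changes.

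The labels gave each library its group and replicate number. Same-numbered libraries of a day deviated together (r of 0.17 to 0.29 in all 5 pairs), so the numbers were taken to pair them, and blocked values are given where they changed a call. Control replicate 2 with JNKi replicate 3 on day 2, and control replicate 1 with JNKi replicate 3 on day 3, also reached 0.17. In kiEpiSC the same-numbered r was 0.15 for WT and 0.05 for JunKO. The labels do not say what the numbers mark, so the blocked calls rest on this assumption. With 2 libraries per arm on a day, its correlations are not independent of each other.

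The members, the 40 gene lists and the comparisons were chosen with earlier results of these data known. Genes were named by a rule: AP-1, JNK and aryl hydrocarbon receptor genes and a set of pluripotency genes throughout, members of a list beside its count, and the smallest adjusted p of both tests of a difference. Cd55, Igfbp3, Cbx7, Apoe, Zfp980 and its relatives, Duxbl1 and Gm6741 were chosen after their values were seen. Members named beside the count of a list were in part picked by value too. Several were the furthest from 0 in their list, such as Otx2, Dnmt3l, Crb3 and Dusp10. Promoter sequences came from RefSeq.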

Additional observations from a re-analysis of the deposited data

Results flagged for a closer look

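Scarb1 and Ptprt differed between cell populations in their response to JNKi on day 3, by a test of the difference itself (edgeR, 21 libraries). For Scarb1 the effect in kEpiSC minus that in WT kiEpiSC was 1.49 on the log2 scale (adjusted p = 0.0135). It passed in 6 of 12 fits that each left out 1 library, with adjusted p values from 0.0033 to 0.12. For Ptprt the difference was −4.66 (adjusted p = 0.0135), which passed in 7 of 12 such fits, with values from 0.0023 to 0.12. Neither passed with the replicate block (adjusted p = 0.117 and 0.0899) or in limma (0.071 and 0.319), and both passed in DESeq2. Ptprt had at most 5.44 CPM in the day 3 libraries of kEpiSC.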

How the results depend on the processing

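Other settings changed the number of called genes, mostly by few. The averaged effect, 0 in edgeR, gave 3 in DESeq2, 7 with the replicate block and 0 to 1 with single libraries left out (1 without control replicate 2 or JNKi replicate 1 of day 2). Limma, RLE size factors, no filter, a 1 CPM filter, 17 libraries, group means, no day term and, added after the data were seen, 11 libraries or any 2 days gave 0. Day 1 gave 6 in limma, 10 with the replicate block and 0 to 1 with single libraries left out. Day 2 gave 7 with the block, 0 with its own libraries alone and 0 to 1 with single libraries left out. Day 3 gave 3 in DESeq2, 1 in limma, 1 with the block and 0 to 5 with single libraries left out. The interaction with day gave 3 in DESeq2, 1 in limma, 1 without a filter, 2 with the block and 0 to 1 with single libraries left out. WT kiEpiSC (272) gave 479 in DESeq2, 521 with the block and 3 to 391 with single libraries left out. JunKO kiEpiSC (130) gave 306 in DESeq2, 242 in limma, 223 without a filter, 340 with the block, 0 with its own libraries alone and 13 to 677 with single libraries left out. The difference between kEpiSC and WT kiEpiSC (2) gave 42 in DESeq2, 4 in limma, 6 without a filter, 0 with the block and 0 to 29 with single libraries left out. It was 29 without JNKi replicate 2 of day 3, and 0 without control replicate 2 or JNKi replicate 3 of day 3, WT control replicate 1 or WT JNKi replicate 2. The cause was not tested for any of these. Where a group was left with 1 library, that library was assumed to vary like the other groups. Among 36 genes followed under the alternatives, 43 of 936 values changed sign, in 7 genes close to 0 (Atf2, Atf7, Cyp1a1, Cyp1b1, Fosl1, Junb and Mapk9), and 9 values passed the threshold that had not in the fit reported. Among these 36 genes, the replicate block changed the call of the averaged effect for Esrrb, Cd55, Apoe, Cldn4, Krt8 and Zfp980, as given in the report, and for no other. The shallowest library held 3.547 M counts, and the median standard error of the averaged effect was 0.11 on the log2 scale.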
